A study of Saccharomyces cerevisiae S288C with 18 samples.

Results

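Ty elements are the long terminal repeat (LTR) retrotransposons of budding yeast, and the transcripts of all annotated Ty copies are described here across 6 groups of RNA sequencing libraries. The members were every row of the deposited count table whose identifier named a Ty element (chromosome, arm, strand, Ty family and copy number, with any suffix). This rule found 50 of the 23521 rows, and all 50 names matched 1 of the 50 Ty elements annotated in the reference genome of Saccharomyces cerevisiae (build R64). The rule used names only, not reads. Of the 50 rows, 31 were Ty1, 13 Ty2, 2 Ty3, 3 Ty4 and 1 Ty5.

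The libraries came from BY4741, a laboratory strain, grown exponentially in rich glucose medium. In 4 groups a protein carried a C-terminal TAP tag, integrated with a HIS3MX6 marker at its own gene, and the RNA bound to it was purified on IgG-coated magnetic beads: Lsm1-TAP, Upf1-TAP, Rpl16a-TAP and Pab1-TAP. Control was the untagged BY4741 strain taken through the same purification, so it holds the RNA that reached the beads without a tag. Input was total RNA of the extract before purification, and the sources used here do not give the strain behind each Input library. Each group had 3 replicates, and nothing in the labels says whether they were separate cultures, so p-values measure the spread between these libraries. The samples are whole cultures, and each value is relative to the other RNA of its library: fewer cells with Ty RNA, less Ty RNA per cell and more of other RNA cannot be told apart.

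A Ty element is transcribed from LTR to LTR into a capped, polyadenylated RNA that serves both as messenger RNA and as genome of the element. Gag, the coat protein, is made by normal reading. In Ty1 to Ty4 the Gag-Pol fusion with protease, integrase and reverse transcriptase needs a ribosomal frameshift at a heptamer in the overlap of the frames. The RNA is packed into virus-like particles, where reverse transcription starts at a primer binding site just behind the first LTR, on the initiator methionine tRNA in Ty1, Ty2 and Ty3. Of the tagged proteins, Upf1 is the helicase of nonsense-mediated decay, Pab1 binds poly(A) tails, Rpl16a is part of the large subunit of the ribosome, and Lsm1 belongs to the Lsm1-7 ring that promotes decapping.

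The sequences below are shown because the sites of primer binding and of frameshifting, on which reverse transcription and the making of Gag-Pol rest, hold the same core letters in most copies. The windows are 30 bases of the R64 reference genome (RefSeq), printed 5′ to 3′ on the strand of the element. Capitals mark the first 8 bases of the primer binding site, TGGTAGCG, or the frameshift heptamer, CTTAGGC in Ty1, Ty2 and Ty4 and GCGAGTT in Ty3.
YLRWTy1-3 primer binding site, chrXII:651148-651177, forward strand: acatttctcaTGGTAGCGcctgtgcttcgg
YGRCTy2-1 primer binding site, chrVII:574349-574378, reverse strand: attctcttcaTGGTAGCGcctatgcttcgg
YGRWTy3-1 primer binding site, chrVII:707527-707556, forward strand: atacaacaccTGGTAGCGttaaaggttact
YLRWTy1-3 frameshift, chrXII:652407-652436, forward strand: cacgaccttcacCTTAGGCcaggaacttac
YGRCTy2-1 frameshift, chrVII:573102-573131, reverse strand: gacgaacttagtCTTAGGCcagcaacagaa
YGRWTy3-1 frameshift, chrVII:708450-708479, forward strand: agagcacgtaagGCGAGTTctaaccgatct
YJLWTy4-1 frameshift, chrX:198987-199016, forward strand: ccaaatagggaaCTTAGGCctgactcgacc

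TGGTAGCG lay behind the first LTR in 31 of 31 Ty1, 12 of 13 Ty2 and 2 of 2 Ty3 copies, and in none of the 3 Ty4 copies or the Ty5 copy. These 8 letters occurred on either strand in 0.0659% of all 405230 windows of 30 bases of the genome, CTTAGGC in 0.1% and GCGAGTT in 0.117%. The heptamer was found in all Ty1, Ty2, Ty3 and Ty4 copies. The frameshift window was the same in both Ty3 copies and in all 3 Ty4 copies, and took 2 forms in Ty2 and 3 in Ty1. The primer binding window varied more, with 6 forms in 31 Ty1 copies and 8 forms in 12 Ty2 copies, the commonest Ty2 form in 4 copies. Repetition went beyond these sites. Of the 50-base windows of a Ty1 copy, a median of 87.3% occurred at more than 10 places in the genome, the limit above which the aligner drops a read by default. The median was 60.8% for Ty2, 6.44% for Ty3 and 5.28% for Ty4, while 99.0% of the windows of the Ty5 copy occurred once.

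The Ty element rows held 399330 reads, without those in the reading frame rows described below. The 31 Ty1 rows held 266075 of them (66.6%), the 13 Ty2 rows 102196 (25.6%), the 2 Ty3 rows 26852 (6.72%) and the 3 Ty4 rows 4198 (1.05%). The Ty5 row, YCLWTy5-1 on chromosome III, had 9 reads over 18 libraries. Reads were present in 31 of the 50 rows, and 29 passed the minimum of 10 reads in at least 3 libraries that every row had to pass to be tested: 17 Ty1, 8 Ty2, both Ty3 and 2 Ty4. Of the 21 that did not, 19 had no read, YORWTy2-2 had 8 and YCLWTy5-1 had 9.

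Which rows had reads followed the strand and the spelling of the row. Among Ty rows with no suffix, 25 of 25 on the forward strand and 0 of 19 on the reverse strand had reads, whereas all 6 rows with the suffix ORF had reads, 2 of them on the reverse strand. Other rows with no suffix that matched RefSeq by name did the same, with reads in 50 of 57 on the forward and 0 of 28 on the reverse strand. The gag and pol reading frames inside the copies, which the table lists as rows of their own, showed the opposite: 19 of 36 on reverse-strand copies had reads, against 1 of 55 on forward-strand copies. That 1 row was HAP1, a transcription factor gene whose end overlaps YLRWTy1-3, and not a Ty frame. A zero in the Ty rows of reverse-strand copies therefore gives no measurement of their RNA, and the part of strand in the counting was not tested.

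Among the element rows a pair of copies held most reads, while the Gag-Pol frame row of YNLCTy1-1, counted apart, held 272358. YLRWTy1-3 (chromosome XII, 650824 to 656743, forward strand) had 154265 reads, 58.0% of the Ty1 and 38.6% of all element row reads. YGRCTy2-1 (chromosome VII, 568740 to 574700, reverse strand) had 89810, 87.9% of the Ty2 and 22.5% of all element row reads. Among the rows with reads these copies also had the most bases outside annotated reading frames, 4497 and 5961, where the 28 other copies with reads and annotated frames had 319 to 931 bases outside them and 8 to 23478 reads (median 1964). The Ty5 row had 3144 bases outside frames and 9 reads, and the rows of YLRCTy2-2 and YNLCTy2-1, reverse-strand copies with 5443 and 5297 such bases, had none. Per base outside frames, YLRWTy1-3 had 34.3 reads and YGRCTy2-1 15.1. The 28 other copies ran from 0.0124 (YORWTy2-2) to 36.8 (YJRWTy1-1), with a median of 2.92 and with 20 of them under 6. Whether reads inside the frames were counted for the element was not tested, and read numbers are not compared between copies as levels of their transcripts.

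**Figure D1:**
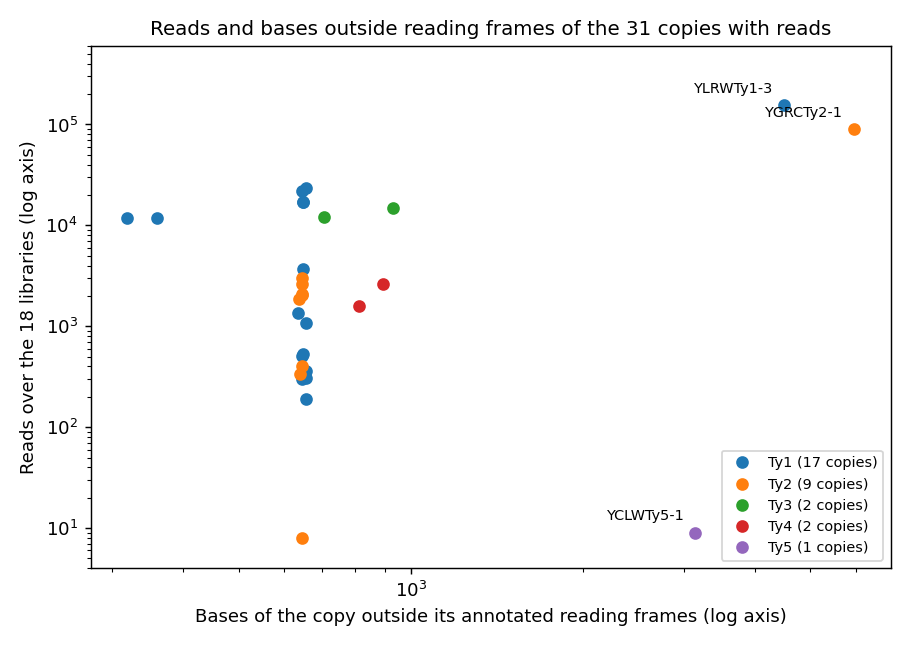
Total reads over the 18 libraries (vertical, log axis) of each of the 31 Ty rows with reads against the bases of the copy outside annotated reading frames (horizontal, log axis), 1 point per row, coloured by family. YLRWTy1-3 (154265 reads) and YGRCTy2-1 (89810 reads) stand at the right with 4497 and 5961 bases, next to the Ty5 row with 9 reads.

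Some copies had nearly equal counts in every library. YDRWTy1-5 had 660, 1300 and 1381 reads in the Control libraries and YLRWTy1-2 had 659, 1279 and 1361. Over 18 libraries the chi-square of this pair was 0.0386 per library, where independent counts would give a value near 1, and their sequences were 98.3% identical. The Ty2 copies YCLWTy2-1 and YLRWTy2-1 (99.5% identical) had 0.0537 and the neighbours YJRWTy1-1 and YJRWTy1-2 (95.6%) had 0.139. Of 406 pairs of rows with over 100 reads, 7 pairs with 10 rows were under 1, those not named here at 0.768 to 0.926. This value finds rows with equal counts and misses rows in a fixed ratio. YGRWTy1-1 had 822, 1828 and 1940 reads in Control. There YJRWTy1-1 had 408, 899 and 951, and YJRWTy1-2 had 412, 930 and 981. The named pairs, far below 1, are not independent observations. Calls on both members of such a pair count the same reads or reads split evenly between them. Values of 0.768 to 0.926 are near that of independent counts. Whether YGRWTy1-1 shares reads with the YJRWTy1 pair was not tested, and its calls are not taken as independent of theirs.

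Total reads per library ranged from 2790148 to 16381719. Ribosomal RNA rows held 5.68 to 67.0% of reads in 7 libraries (replicate 3 of every group and Control replicate 2) and at most 0.024% in the other 11. Among those 11, the row YLR154W-E, not in this share, held 8.24% in Lsm1-TAP replicate 2, 3.45% in Control replicate 1 and 1.10% in Lsm1-TAP replicate 1. Whether its reads are ribosomal was not tested. Beside the family results the difference within each of the 2 classes, under and over 1% ribosomal reads, is given in that order. The class over 1% held 1 library per group and 2 for Control, and the class under 1% held 2 per group and 1 for Control. A value over 1% thus rests on 1 library of each tagged group. Genes deleted in BY4741 gave the picture of that strain in every library, with 0 reads for LEU2 and MET17, 2 in all for URA3, and 14 to 3138 for HIS3, of which the strain's partial deletion leaves a part. No 2 replicates of a group agreed within counting error (lowest chi-square per degree of freedom 20.3).

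The Ty element rows held a small share of Input and a larger one of most purifications, the untagged Control included. Reading frame rows of reverse-strand copies are not in the shares below and held more reads. They had 136328 reads beside 19501 in Control replicate 1, and 7308 beside 1872 in Input replicate 1. The Ty rows took 0.0218 to 0.0303% of the reads in the 3 Input libraries, 0.329 to 0.474% in Control, 0.271 to 0.959% in Lsm1-TAP, 0.431 to 0.570% in Upf1-TAP, 0.0288 to 0.0881% in Rpl16a-TAP and 0.155 to 0.252% in Pab1-TAP. These shares of all reads move with ribosomal and other abundant RNA. Levels below are therefore given as scaled CPM, reads set to a common library size after multiplying each total with a TMM factor, which sets most features level between libraries.

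For all Ty rows together, scaled CPM was 580, 496 and 617 in Input and 3901, 3329 and 3871 in Control. In Upf1-TAP it was 2583, 2625 and 2643, and in Lsm1-TAP 5978, 2373 and 2155. Rpl16a-TAP had 931, 894 and 1160, and Pab1-TAP had 1341, 1139 and 1977. Input was lowest with no overlap with any purification, Rpl16a-TAP overlapped only Pab1-TAP, and Lsm1-TAP spread widely, with replicate 1 far above the other two.

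Ty1 is the most abundant family, and its rows were high in Control. Scaled CPM for Ty1 was 333, 241 and 435 in Input, 2650, 2833 and 3244 in Control, and 1610, 1584 and 2125 in Upf1-TAP. Lsm1-TAP had 4097, 1567 and 1794, Rpl16a-TAP 594, 618 and 1028, and Pab1-TAP 630, 519 and 1242. Every purified library was above every Input library, and the 3 Control libraries were above all Upf1-TAP, Pab1-TAP and Rpl16a-TAP libraries.

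Ty2, whose element row reads mostly came from 1 copy, differed more between replicates. In Input it had 151, 149 and 140 scaled CPM, in Control 1153, 476 and 597, in Upf1-TAP 731, 817 and 428, and in Lsm1-TAP 1719, 727 and 323. Pab1-TAP had 391, 278 and 569 and Rpl16a-TAP 251, 245 and 104. Rpl16a-TAP lay on both sides of Input, and the other purifications were above it.

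Ty3, which belongs to the Gypsy type of LTR elements while the other families are of the Copia type, followed another order. It had 84.6, 90.6 and 27.4 scaled CPM in Input, but 85.4, 9.50 and 18.6 in Control, and 77.3, 25.5 and 9.95 in Rpl16a-TAP. Pab1-TAP had 297, 324 and 91.5, Upf1-TAP 208, 193 and 54.9, and Lsm1-TAP 130, 66.1 and 23.5. Replicate 3 was the lowest library in every group other than Control, all of them with over 1% ribosomal reads, and Pab1-TAP was the only group above all Control libraries.

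Ty4 was the least abundant family tested. It had 11.5, 15.2 and 14.2 scaled CPM in Input, 12.4, 10.0 and 11.7 in Control, and 33.0, 32 and 34.7 in Upf1-TAP. Pab1-TAP had 23.4, 18.6 and 73.7, Lsm1-TAP 31.2, 13.1 and 14.5, and Rpl16a-TAP 8.43, 5.92 and 18.5. All Upf1-TAP and Pab1-TAP libraries were above all Input and Control libraries. YCLWTy5-1, the Ty5 remnant, had 2 reads in Upf1-TAP replicate 2, 2 in Lsm1-TAP replicate 2, 1 in Lsm1-TAP replicate 3 and 4 in Input replicate 2, and no difference was detectable at this depth.

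**Figure D2:**
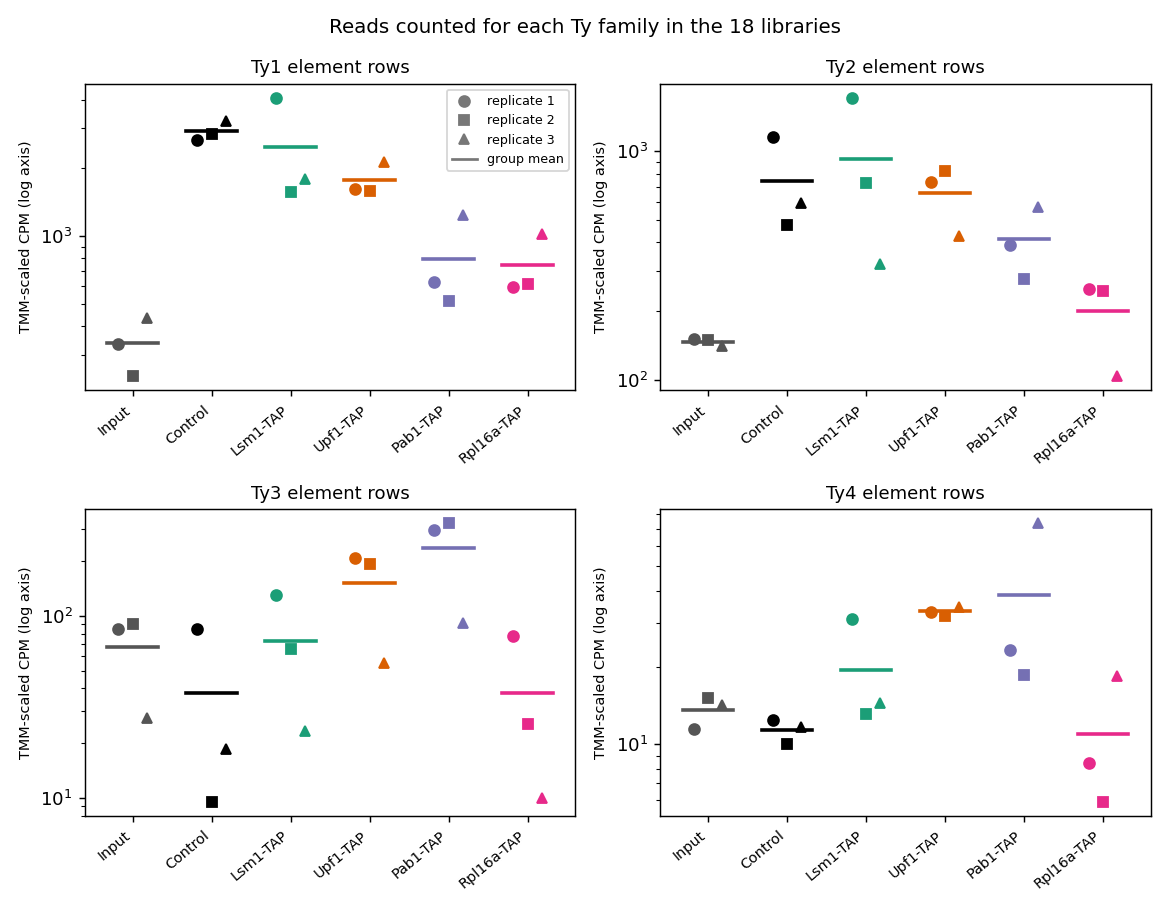
Scaled CPM (TMM, log axis) of the summed rows of Ty1, Ty2, Ty3 and Ty4 in each of the 18 libraries, 1 marker per library by replicate number, with a line at the mean of each group of 3. Ty1 and Ty2 are high in Control and Lsm1-TAP, while Ty3 and Ty4 are as low in Control as in Input and highest on average in Pab1-TAP.

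The untagged Control asks which RNA reached the beads without a tag. Against Input, all Ty rows together were 2.72 ± 0.45 higher there on the log2 scale (SE, adjusted p = 0.0013; edgeR quasi-likelihood test with Benjamini-Hochberg adjustment over all features, threshold 0.05, 3 libraries against 3, as for all adjusted p-values here). Ty1 rose by 3.12 ± 0.49 (adjusted p = 0.00091) and Ty2 by 2.34 ± 0.54 (adjusted p = 0.0088). Ty3, at -0.86 ± 0.81 (adjusted p = 0.506), and Ty4, at -0.26 ± 0.50 (adjusted p = 0.773), did not pass. With scaling by total reads, which moved the median of all features by 1.20, Ty3 and Ty4 were at 0.43 and 0.98. Within libraries under and over 1% ribosomal reads the difference was 3.22 and 2.80 for Ty1, 2.94 and 1.92 for Ty2, -0.04 and -1.02 for Ty3, and -0.09 and -0.38 for Ty4. The calls for all Ty rows, Ty1 and Ty2 were made again without each single library.

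Of the 29 single copies tested, 10 were called higher in Control than in Input, where 9.21% of all 12582 features were called higher and 6.96% lower. The median log2 difference was 1.68 for the copies and 0.04 for all features. YLRWTy1-3 had 148, 110 and 146 scaled CPM in Input and 1894, 1499 and 1762 in Control, a log2 difference of 3.68 ± 0.42 (adjusted p = 0.000102). Next came 2 low copies, YDRWTy2-3 at 3.43 ± 0.88, lost without Input replicate 1 (2.91), and YPLWTy1-1 at 3.38 ± 1.06, lost without Control replicate 2 or 3 (3.29 and 2.91) or Input replicate 1 or 2 (3.44 and 2.62). They were followed by YGRWTy1-1 at 3.28 ± 0.59 and YGRCTy2-1 at 2.82 ± 0.65. Without YLRWTy1-3 and YGRCTy2-1, the other Ty rows together were 1.95 ± 0.47 higher in Control (adjusted p = 0.0102).

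All tagged purifications were compared with the same 3 Input libraries, so these comparisons are not independent of each other. In Lsm1-TAP all Ty rows together were higher by 2.64 ± 0.45 (adjusted p = 0.00073). Upf1-TAP was higher by 2.22 ± 0.44 (adjusted p = 0.00084) and Pab1-TAP by 1.40 ± 0.43 (adjusted p = 0.0312). The Lsm1-TAP and Upf1-TAP calls held without each single library. The Pab1-TAP call was lost without Pab1-TAP replicate 3 (1.14, adjusted p = 0.096), Input replicate 1 (1.42, adjusted p = 0.095) or Input replicate 2 (1.31, adjusted p = 0.12). Rpl16a-TAP, with 0.82 ± 0.42 (adjusted p = 0.222), did not pass.

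Replicate numbers paired the tagged libraries with Input, so a fit with the replicate as a block is given where it changed a call. In Upf1-TAP, Ty1 rose by 2.40 ± 0.48 (adjusted p = 0.00084), Ty2 by 2.17 ± 0.54 (adjusted p = 0.0045) and Ty4 by 1.29 ± 0.50 (adjusted p = 0.0492), the last lost without any 1 of the 6 libraries (1.17 to 1.39, adjusted p 0.079 to 0.14). Ty3 was at 1.15 ± 0.81 (adjusted p = 0.274) and passed with the replicate block (1.11, adjusted p = 0.0337). Under and over 1% ribosomal reads the differences were 2.49 and 2.29 for Ty1, 2.36 and 1.61 for Ty2, 1.19 and 0.99 for Ty3, and 1.27 and 1.26 for Ty4.

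In Lsm1-TAP, Ty1 rose by 2.89 ± 0.49 (adjusted p = 0.00069) and Ty2 by 2.65 ± 0.55 (adjusted p = 0.0027), both also without each single library. Ty3 at 0.10 ± 0.81 (-0.06 with the replicate block, -0.61 without Lsm1-TAP replicate 1) and Ty4 at 0.52 ± 0.50 did not pass. The difference within the ribosomal classes was 3.16 and 2.04 for Ty1, 2.89 and 1.20 for Ty2, 0.08 and -0.22 for Ty3, and 0.60 and 0.02 for Ty4.

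In Pab1-TAP, Ty4 rose by 1.5 ± 0.50 (adjusted p = 0.0462), a call lost without Pab1-TAP replicate 3 (0.62, adjusted p = 0.34). It was also lost without Input replicate 1, 2 or 3 (adjusted p 0.151, 0.114 and 0.0778). Ty1 at 1.25 ± 0.46, Ty2 at 1.49 ± 0.53 and Ty3 at 1.80 ± 0.83 missed the threshold (adjusted p 0.066, 0.058 and 0.137) and passed with the replicate block (1.22, 1.55 and 1.80, adjusted p 0.021, 0.0098 and 0.0033). Under and over 1% ribosomal reads the differences were 1.01 and 1.51 for Ty1, 1.13 and 2.02 for Ty2, 1.82 and 1.72 for Ty3, and 0.64 and 2.33 for Ty4.

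In Rpl16a-TAP, Ty1 was at 1.15 ± 0.46 (adjusted p = 0.111), and it passed with the replicate block (adjusted p = 0.0348). Ty2 was at 0.45 ± 0.52, Ty3 at -0.80 ± 0.82 and Ty4 at -0.49 ± 0.53, none of which passed. Within the classes Ty1 was at 1.10 and 1.24 and Ty3 at -0.97 and -1.42, while Ty2 (0.72 and -0.43) and Ty4 (-0.86 and 0.37) differed in sign between them. With scaling by total reads Ty3 was at 0.01.

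The count of single copies called higher than Input was 14 of 29 in Upf1-TAP, beside 22.2% of all features higher and 15.9% lower. Lsm1-TAP had 9 (13.1% and 9.77% of all features), Rpl16a-TAP had 1 (5.62% and 4%) and Pab1-TAP had 6 (9.89% and 7.89%). Without Input replicate 1 or 2 the count was 7 or 9 for Upf1-TAP, 0 for Rpl16a-TAP and 2 or 1 for Pab1-TAP, and it was 5 for Lsm1-TAP without Input replicate 1 or Lsm1-TAP replicate 1. For Pab1-TAP it was 14 without Pab1-TAP replicate 2 and 2 without Pab1-TAP replicate 3. For fits that leave out a library, here and below, the share of all features called is not given, so these counts have no background. With the replicate block 22 copies were higher in Pab1-TAP and 21 were called in Upf1-TAP (1 of them lower), and Rpl16a-TAP had 4 higher and 3 lower copies. With the block 18% of all features were higher and 14.3% lower in Pab1-TAP, 29.5% and 21.8% in Upf1-TAP, and 14% and 10.9% in Rpl16a-TAP. The median log2 difference of the 29 copies was 1.76 in Upf1-TAP, beside 0.27 for all features. It was 1.04 in Lsm1-TAP (all features 0.13), 1.6 in Pab1-TAP (0.23) and -0.31 in Rpl16a-TAP (0.03). YLRWTy1-3 was called in Lsm1-TAP (3.43 ± 0.42), Upf1-TAP (2.98 ± 0.41) and Rpl16a-TAP (1.68 ± 0.39), the last lost without Input replicate 1 or 2 (adjusted p 0.058 and 0.066), and was at 1.06 ± 0.39 in Pab1-TAP (adjusted p = 0.0628).

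A pair of Ty2 copies showed another order than the family. YDRWTy2-2 had 1.5, 0.8 and 4.1 scaled CPM in Input, 3.8, 4.8 and 6.7 in Control, 10.5, 5.43 and 46.6 in Pab1-TAP and 23.0, 21.7 and 57.5 in Upf1-TAP. YBLWTy2-1 had 3.1, 3.1 and 8.1 in Input, 5.8, 6.7 and 7.5 in Control, 15.2, 8.61 and 61.0 in Pab1-TAP and 25, 23.9 and 52.1 in Upf1-TAP. For both copies every Upf1-TAP library was above every Control and Input library, and Lsm1-TAP (3.53 to 7.32 and 5.93 to 8.66) stayed near Control. Against Input, YDRWTy2-2 rose by 4.40 ± 0.84 in Upf1-TAP and 3.68 ± 0.84 in Pab1-TAP, and YBLWTy2-1 by 3.0 ± 0.65 and 2.74 ± 0.65. The Pab1-TAP calls were lost without Input replicate 2 (adjusted p 0.056 and 0.059) and, for YBLWTy2-1, also without Input replicate 1 (adjusted p = 0.053).

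**Figure D3:**
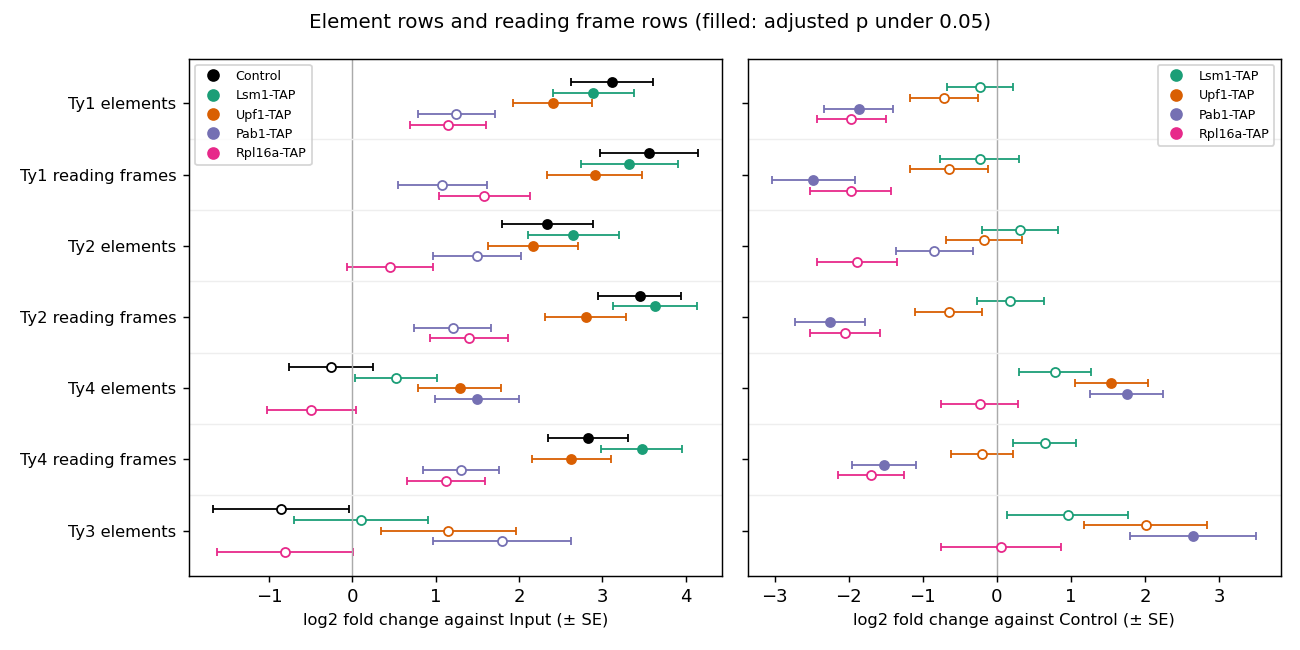
Log2 difference against Input (left) and against Control (right) of the summed element rows of Ty1, Ty2, Ty3 and Ty4 and of the summed reading frame rows of reverse-strand Ty1, Ty2 and Ty4 copies, with bars of ± 1 SE (edgeR, 3 libraries per group) and filled points where the adjusted p was under 0.05. Against Input the Ty1 elements of Control stand at 3.12 and its Ty3 and Ty4 elements at -0.86 and -0.26. Against Control the Pab1-TAP points run from -2.48 for the Ty1 reading frames to 2.65 for the Ty3 elements.

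Set against the untagged Control, which asks what the tag added, the Ty1 element rows fell in Pab1-TAP while the Ty3 and Ty4 element rows rose. Summed Ty4 reading frames, given below, fell instead (-1.53 ± 0.44, adjusted p = 0.0240). All 4 comparisons share the 3 Control libraries. Ty1 was 1.87 ± 0.47 lower in Pab1-TAP than in Control (log2 difference -1.87, adjusted p = 0.0119), while Ty3 was higher by 2.65 ± 0.85 (adjusted p = 0.0408) and Ty4 by 1.76 ± 0.50 (adjusted p = 0.0228). Ty2 was at -0.85 ± 0.52 (adjusted p = 0.279).

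The Ty1 call was lost without Pab1-TAP replicate 2 (-1.62, adjusted p = 0.0583). The Ty3 call was lost without Control replicate 2 or 3 (2.19 and 2.32) or Pab1-TAP replicate 1 or 2 (2.46 and 2.37). The Ty4 call was lost without Control replicate 1, 2 or 3 (1.82, 1.67 and 1.78) or Pab1-TAP replicate 3 (0.89, adjusted p = 0.185). Under and over 1% ribosomal reads the difference was -2.21 and -1.29 for Ty1 and -1.81 and 0.09 for Ty2. It was 1.85 and 2.74 for Ty3, and 0.73 and 2.71 for Ty4. Ty2 changed sign between the classes, where the value over 1% rests on Pab1-TAP replicate 3 alone.

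All Ty rows together were 1.32 ± 0.43 lower in Pab1-TAP than in Control (log2 difference -1.32, adjusted p = 0.0422). This call was lost without any 1 of Control replicates 1, 2 and 3 and Pab1-TAP replicates 1 and 2 (-1.39 to -1.15, adjusted p 0.0885 to 0.143). Without YLRWTy1-3 and YGRCTy2-1 the difference was -0.35 ± 0.45 (adjusted p = 0.641). The pair held 58.1 to 77.5% of element row reads in Control, 51.9 to 71.3% in Lsm1-TAP, 52.9 to 68.1% in Upf1-TAP, 52.0 to 70.7% in Rpl16a-TAP and 33.8 to 47.5% in Input, but 17.3 to 46.0% in Pab1-TAP. Pab1-TAP did not overlap any other purification in this share.

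Against Control, Pab1-TAP had 7 of the 29 copies called higher and 4 called lower, beside 8.24% and 8.08% of all features. The total of 11 was 4 without Control replicate 2 or 3 and 7 without Pab1-TAP replicate 2. With scaling by total reads 6 were higher and 1 lower, beside 8.3% and 0.588% of all features. YLRWTy1-3, with 311, 266 and 266 scaled CPM in Pab1-TAP, was at -2.61 ± 0.40 against Control (adjusted p = 0.000995), and this call held without each of the 6 libraries in turn. YGRWTy1-1 had 164, 316 and 354 scaled CPM in Control and 51.1, 37.5 and 142 in Pab1-TAP, with no overlap, and was at -1.86 ± 0.55 (adjusted p = 0.0281). That call was lost without Control replicate 2 or 3 (-1.75 and -1.64) or Pab1-TAP replicate 1 or 2 (-1.62 and -1.51).

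The Ty2 copies YGRWTy2-2, YCLWTy2-1 and YLRWTy2-1 were highest among the copies that rose. YLRWTy2-1 had 2.4, 8.8 and 8.8 scaled CPM in Control, 12.1, 5.8 and 24.4 in Input and 19, 14.3 and 129 in Pab1-TAP. Pab1-TAP was above Control in all libraries, most of all in replicate 3. The log2 differences were 3.09 ± 0.75, 3.01 ± 0.78 and 3.01 ± 0.78 (adjusted p 0.0107, 0.0149 and 0.0149), and without Pab1-TAP replicate 3 they were between 1.30 and 1.36 and no longer called. The calls of YCLWTy2-1 and YLRWTy2-1 were also lost without Control replicate 1 (2.62 and 2.61, adjusted p 0.0574 and 0.0572). YCLWTy2-1 and YLRWTy2-1 are the near-identical pair described above.

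Both Ty3 copies were called. YGRWTy3-1 (chromosome VII, 707195 to 712545) had 36.0, 3.28 and 7.66 scaled CPM in Control and 136, 149 and 37.0 in Pab1-TAP, and YILWTy3-1 (chromosome IX, 205220 to 210647) had 49.4, 6.22 and 10.9 and then 161, 174 and 54.5. The groups did not overlap, by a narrow margin between Control replicate 1 and Pab1-TAP replicate 3. YGRWTy3-1 rose by 2.78 ± 0.88 (adjusted p = 0.0368) and YILWTy3-1 by 2.56 ± 0.81 (adjusted p = 0.0380), and both calls were lost without Control replicate 2 or 3 or Pab1-TAP replicate 1 or 2 (2.30, 2.46, 2.59 and 2.48 for YGRWTy3-1, and 2.11, 2.23, 2.38 and 2.29 for YILWTy3-1).

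YJLWTy4-1 (chromosome X, 197545 to 203768) had 6.80, 4.66 and 5.11 scaled CPM in Control, 16.2, 12.5 and 53.8 in Pab1-TAP and 20.9, 19.1 and 22.3 in Upf1-TAP. Both purifications were above Control with no overlap. It rose by 2.30 ± 0.59 in Pab1-TAP (adjusted p = 0.0139), lost without Control replicate 2 or 3 (2.20 and 2.25) or Pab1-TAP replicate 3 (1.38). YBLWTy2-1 rose by 2.07 ± 0.59 (adjusted p = 0.0236), lost without Control replicate 1, 2 or 3 (1.98, 2.07 and 2.16) or Pab1-TAP replicate 3 (0.83).

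In Upf1-TAP, all Ty rows together were at -0.50 ± 0.42 against Control (adjusted p = 0.371, and 0.36 with scaling by total reads, which moved the median of all features by 0.87). Ty1 was at -0.71 ± 0.45 and Ty2 at -0.17 ± 0.52, neither passing, and with total reads they were at 0.14 and 0.67. Ty4 rose by 1.55 ± 0.49 (adjusted p = 0.0225), lost without Control replicate 2 or 3 (1.46 and 1.57, adjusted p 0.0791 and 0.0631). Ty3 was at 2.01 ± 0.83 (adjusted p = 0.0698) and passed without Control replicate 1 (3.43, adjusted p = 0.0108) or Upf1-TAP replicate 3 (2.42, adjusted p = 0.0392). Under and over 1% ribosomal reads the difference was -0.73 and -0.51 for Ty1, -0.58 and -0.32 for Ty2, 1.23 and 2.00 for Ty3, and 1.35 and 1.64 for Ty4. Ty2 was at 0.29 without Control replicate 1 and at 0.07 without Upf1-TAP replicate 3.

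Of the 29 copies, 3 were called higher in Upf1-TAP than in Control, where 19.8% of all features were called higher and 13.9% lower. These were YDRWTy2-2 (2.73 ± 0.70, adjusted p = 0.0071), YBLWTy2-1 (2.33 ± 0.59, adjusted p = 0.0066) and YJLWTy4-1 (1.91 ± 0.58, adjusted p = 0.0185). The calls of YDRWTy2-2 and YBLWTy2-1 held without each of the 6 libraries in turn, and that of YJLWTy4-1 was lost without Control replicate 2 or 3 (1.80 and 1.86). Without Control replicate 1 or Upf1-TAP replicate 3 the count was 5. The median copy was at -0.30, beside 0.07 for all features.

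In Rpl16a-TAP, all Ty rows together were at -1.90 ± 0.43 against Control (adjusted p = 0.0699), Ty1 at -1.97 ± 0.47 (adjusted p = 0.0782) and Ty2 at -1.89 ± 0.54 (adjusted p = 0.138). The groups did not overlap for any of these sums. Under and over 1% ribosomal reads the difference for all Ty rows was -2.10 and -1.63, with -2.13 and -1.56 for Ty1 and -2.21 and -2.36 for Ty2. Ty3 at 0.05 ± 0.81 (-0.42 by total reads) and Ty4 at -0.23 ± 0.52 did not pass, and within the classes they were at -0.93 and -0.40 and at -0.77 and 0.75. Called lower were 3 of 29 copies (0.246% of all features lower, 0.0556% higher): YLRWTy1-3 (-2.0 ± 0.39, adjusted p = 0.0328) and the near-identical pair YDRWTy1-5 and YLRWTy1-2 (both -2.47 ± 0.52, adjusted p 0.0497 and 0.0485). Each of these was lost without any 1 of the 6 libraries (adjusted p from 0.0678 for YLRWTy1-3 and from 0.0882 for YDRWTy1-5). At an unadjusted p under 0.05 there were 16 of 29 copies and 1766 of 12582 features, and the median copy was at -1.87 beside -0.03 for all features.

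In Lsm1-TAP, all Ty rows together were at -0.08 ± 0.42 against Control (adjusted p = 0.979, and 0.38 by total reads, which moved the median of all features by 0.38). edgeR called 0 of 29 copies and 0% of all features, with 1 copy and 1084 features at an unadjusted p under 0.05, and DESeq2 also called 0 copies. Ty1 at -0.23 ± 0.45, Ty2 at 0.31 ± 0.52, Ty3 at 0.95 ± 0.81 and Ty4 at 0.78 ± 0.49 did not pass (adjusted p 0.716 to 0.929). Total reads put Ty1 at 0.25. Under and over 1% ribosomal reads all Ty rows were at -0.05 and -0.74, Ty1 at -0.06 and -0.76, Ty2 at -0.04 and -0.72, Ty3 at 0.12 and 0.79, and Ty4 at 0.69 and 0.40.

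**Figure D4:**
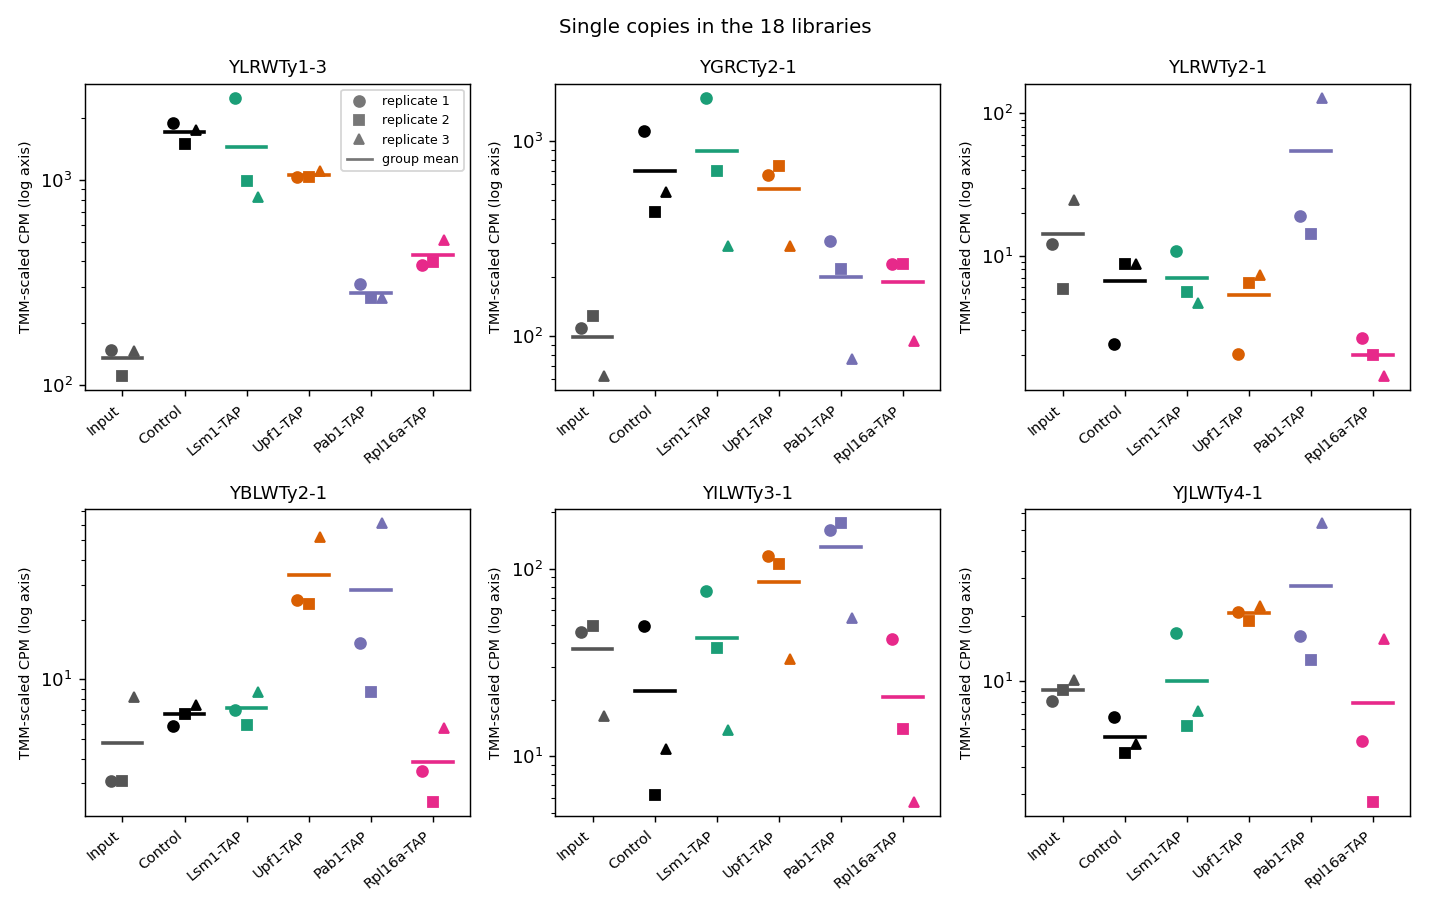
Scaled CPM (TMM, log axis) of 6 single copies in the 18 libraries, 1 marker per library by replicate number and a line at the mean of each group of 3. YLRWTy1-3 lies between 1499 and 1894 in Control and between 266 and 311 in Pab1-TAP. YBLWTy2-1 lies between 23.9 and 52.1 in Upf1-TAP and between 5.8 and 7.5 in Control, and YLRWTy2-1 reaches 129 in replicate 3 of Pab1-TAP.

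The reading frame rows of reverse-strand copies give a second view, from rows annotated as coding frames on other copies. Their reads were not shown to come from those copies. Of the 50-base windows of YPLCTy4-1, 1.55% occurred once in the genome and 93.2% at 2 to 10 places. Gag rows that lie inside a Gag-Pol frame had 0 reads, among them that of YNLCTy1-1, whose Gag-Pol row had 272358. The gag row of YARCTy1-1, beside a truncated frame, had 40267. Reads in the overlap of the frames thus did not count for the gag row. Whether they counted for Gag-Pol was not tested. This comparison was chosen after the element rows had been examined. Summed Ty1 frames had 2134, 1951 and 1440 scaled CPM in Input, 25665, 17287 and 22035 in Control and 4946, 4046 and 2703 in Pab1-TAP. Summed Ty4 frames had 8.37, 10.9 and 19.3 in Input, 101, 89.6 and 70.0 in Control, and 39.1, 22.8 and 28.9 in Pab1-TAP. Control was above Input and Pab1-TAP in all libraries for both.

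Against Input, Control was higher by 3.56 ± 0.59 for Ty1 frames, 3.45 ± 0.50 for Ty2 frames and 2.83 ± 0.48 for Ty4 frames (adjusted p 0.0016, 0.00088 and 0.0018). Against Control, Pab1-TAP was at -2.48 ± 0.56, -2.25 ± 0.47 and -1.53 ± 0.44 (adjusted p 0.0071, 0.0048 and 0.0240). For Ty4 the frames of YPLCTy4-1, the reverse-strand copy, and the rows of the 2 forward copies had opposite calls in Pab1-TAP against Control (-1.53 and 1.76). Signs also differed in Control against Input (2.83 and -0.26) and in Upf1-TAP against Control (-0.20 and 1.55). There the negative values did not pass (adjusted p 0.773 and 0.740). With scaling by total reads the Ty4 element rows were positive in Control against Input, as given above. The frames kept their direction within both ribosomal classes in Pab1-TAP against Control (Ty4 frames -1.74 and -1.44). Whether copy, region or counting goes with these opposite signs was not tested.

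Of 19 frame rows tested, 17 were called higher than Input in Control, 17 in Upf1-TAP, 17 in Lsm1-TAP, 14 in Rpl16a-TAP and 4 in Pab1-TAP. The summed Ty1, Ty2 and Ty4 frames in Rpl16a-TAP, at 1.58 ± 0.54, 1.40 ± 0.46 and 1.12 ± 0.47 against Input, did not pass (adjusted p 0.0694, 0.0616 and 0.127). Against Control, 18 were called lower in Pab1-TAP, 1 in Upf1-TAP and 5 in Rpl16a-TAP. The shares of all features called in these comparisons are those given above.

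Genes of the host act on Ty RNA at each step, and 32 of them were counted by role from a list chosen with earlier results of these data known. The list holds transcription factors and SAGA or Snf2 subunits that act on the Ty promoter, RNA decay factors, the debranching enzyme, RTT genes named for Ty1 transposition, and the RNA polymerase III factors near which Ty1 integrates. Higher than Input were 13 in Control, 13 in Lsm1-TAP, 11 in Upf1-TAP (2 lower), 5 in Pab1-TAP (3 lower) and 10 in Rpl16a-TAP. The shares of all features called higher were 9.21%, 13.1%, 22.2%, 9.89% and 5.62% in the same order, and those called lower 15.9% in Upf1-TAP and 7.89% in Pab1-TAP. Without Input replicate 1 the total called was 6 in Control, 3 in Pab1-TAP and 5 in Rpl16a-TAP. It was 7 in Control without Control replicate 2, 6 in Rpl16a-TAP without Rpl16a-TAP replicate 2, and in Pab1-TAP 5 without Pab1-TAP replicate 1 or 2 and 3 without Input replicate 2. With the replicate block the total called was 20 in Lsm1-TAP, 18 in Rpl16a-TAP and 14 in Pab1-TAP, beside 37%, 24.8% and 32.3% of all features. With scaling by total reads, 29 in Lsm1-TAP, 29 in Upf1-TAP, 24 in Control, 22 in Pab1-TAP and 13 in Rpl16a-TAP were higher, beside 52.9%, 70.5%, 31.1%, 62.4% and 8.03% of all features.

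XRN1 encodes the 5′ to 3′ exonuclease of the cytoplasm, whose loss lowers Ty1 transposition. Its mRNA had 282, 330 and 318 scaled CPM in Input, 624, 682 and 560 in Control, 157, 174 and 103 in Pab1-TAP and 191, 192 and 228 in Upf1-TAP. Control was above the other 3 groups with no overlap. It rose by 1.00 ± 0.30 in Control against Input (adjusted p = 0.0302) and was at -1.61 ± 0.30 in Upf1-TAP and -2.10 ± 0.31 in Pab1-TAP against Control (adjusted p 0.0010 and 0.000966).

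DCP2, the decapping enzyme's catalytic subunit, had 31.9, 42.2 and 61.0 scaled CPM in Input, 134, 150 and 127 in Control and 1407, 461 and 220 in Lsm1-TAP. All Lsm1-TAP libraries were above all Control libraries. DCP2 rose by 3.96 ± 0.54 in Lsm1-TAP against Input (adjusted p = 0.00019) and was at 2.35 ± 0.50 against Control (adjusted p = 0.0757). PAT1, a decapping activator that binds the Lsm1-7 ring, rose by 2.17 ± 0.53 against Input (adjusted p = 0.0075). LSM1, the gene of the tagged protein, was at 0.60 ± 0.45 in Lsm1-TAP (adjusted p = 0.358) and rose by 1.56 ± 0.46 in Upf1-TAP against Input (adjusted p = 0.0123).

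In Control, UPF3 of nonsense-mediated decay rose by 2.68 ± 0.46 against Input, the polymerase III factor BDP1 by 2.40 ± 0.35, the ribosome biogenesis gene BUD22 by 2.36 ± 0.38 and the SAGA subunit SPT7 by 2.30 ± 0.30. In Upf1-TAP, GCR1, a transcription factor of glycolytic genes, rose by 2.64 ± 0.66 and BUD21 by 2.46 ± 0.40 against Input, and the debranching enzyme DBR1 by 1.05 ± 0.30. TEC1 and STE12, transcription factors of the Ty1 promoter, were called in none of the 9 comparisons by edgeR.

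Against Control, 4 of the 32 genes were higher and 11 lower in Upf1-TAP (9 in all without Upf1-TAP replicate 1), with RTT105 at 2.27 ± 0.47, the kinase gene KSS1 at 1.85 ± 0.47, RTT103 at -1.96 ± 0.45 and SPT7 at -1.88 ± 0.29. The shares of all features were 19.8% higher and 13.9% lower. By total reads 7 genes and 30.9% of all features were higher. In Pab1-TAP 8 genes and 8.08% of all features were lower (5 without Control replicate 2, 4 without Pab1-TAP replicate 3), among them SPT7 at -2.01 ± 0.29 and the decapping activator DHH1 at -1.94 ± 0.43, and by total reads edgeR called 0 (3 at an unadjusted p under 0.05, while DESeq2 with its own scaling called 9). In Rpl16a-TAP and Lsm1-TAP edgeR called 0 of 32, while 6 and 5 had an unadjusted p under 0.05, beside 1766 and 1084 of 12582 features. DESeq2 called 1 and 2 genes, beside 4.15% and 1.51% of all features. Without Lsm1-TAP replicate 3 edgeR called 1 there.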

How the data were processed

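RNA of 18 libraries (6 groups of 3 replicates) was measured by stranded sequencing after ribosomal RNA depletion with either of 2 kits, and the sources used here do not say which library had which. The deposited values are raw read counts per feature, which the authors made by trimming with cutadapt 1.16, aligning to the S288C genome (R64) with STAR 2.7 and counting with featureCounts of Subread 1.6.2, per the paper's methods and the submitters' processing notes. The sources used here do not give how reads with several places, reads over 2 features and strand were counted, and reads of near-identical Ty copies can be split or dropped. Intervals cover the spread between libraries only.

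Counts were tested with edgeR 4.0.16 in R 4.3.3 (quasi-likelihood F test, TMM factors, all 18 libraries, no covariate) over the features that reached 10 reads in 3 or more libraries, with Benjamini-Hochberg adjustment and a threshold of 0.05. Ty rows were tested as single rows, and summed by family or over all Ty rows in place of the single rows. Levels are TMM-scaled CPM. Tables and plots were made with Python 3.11.15, numpy 2.4.6, pandas 2.3.3 and matplotlib 3.10.9, and the tests were tried on simulated data. DESeq2 1.42.0, other scaling and filters, single libraries left out, only the 6 libraries compared and a replicate block were alternatives. Single copies were named by the highest mean CPM (3 per family) or the largest differences past the threshold in a comparison, and host genes likewise (4 per comparison) with XRN1, LSM1, DBR1, TEC1 and STE12 in any case. YPLCTy4-1, YCLWTy5-1, YORWTy2-2 and other copies outside this rule were named after their values were seen. The members and lists were chosen with earlier results of these data known.

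Whether the replicate numbers pair libraries was checked by the correlation of deviations from the group means. Each tagged library correlated with the Input library of its number (0.125 to 0.482), in 11 of 12 cases best with its own number. Control did so for replicates 1 and 3 (0.412 and 0.290) but not for replicate 2 (-0.208), so the block is given beside results against Input. Replicate 3 of every group and Control replicate 2 had over 1% ribosomal reads, so for those libraries pairing and ribosomal class cannot be told apart.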

Additional observations from a re-analysis of the deposited data

Results flagged for a closer look

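The enrichment of all Ty rows over Input differed between purifications by the direct test of one purification against another (edgeR, log2 difference, 3 libraries against 3). Upf1-TAP was higher than Rpl16a-TAP by 1.40 (adjusted p = 0.0146), lost without Rpl16a-TAP replicate 1 or 2 (1.35 and 1.32, adjusted p 0.0532 and 0.0645). Pab1-TAP was lower than Lsm1-TAP (-1.24, adjusted p = 0.0473), lost without Pab1-TAP replicate 1, 2 or 3 (-1.16, -1.06 and -1.50) or Lsm1-TAP replicate 1 (-0.61). Lsm1-TAP was higher than Rpl16a-TAP by 1.82 (adjusted p = 0.0214), lost without Rpl16a-TAP replicate 1 or 2 (1.77 and 1.75) or Lsm1-TAP replicate 1 (1.19).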

How the results depend on the processing

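Alternatives were tried for every count of copies called and every sum. Those with a ribosomal class term, without the 2 large copies or with reading frame rows were added after the data had been seen. The fit of the report called 14 copies in Upf1-TAP, 9 in Lsm1-TAP, 1 in Rpl16a-TAP, 6 in Pab1-TAP and 10 in Control against Input, and 3 in both Upf1-TAP and Rpl16a-TAP, 11 in Pab1-TAP and 0 in Lsm1-TAP against Control. Scaling by total reads moved the median of all features upward by 0.63 to 2.06 against Input, and the number of copies called was then 26 in Upf1-TAP, 20 in Lsm1-TAP, 29 in Pab1-TAP and 17 in Control against Input, and 6 in Upf1-TAP, 7 in Pab1-TAP and 6 in Rpl16a-TAP against Control. All features called were then 71.5%, 53.6%, 62.8% and 31.3% against Input, and 31.5%, 8.89% and 0.246% against Control, in the same orders. Total reads also turned Ty3 in Rpl16a-TAP (0.012) and Ty3 and Ty4 in Control (0.43 and 0.98) against Input. Against Control they turned all Ty rows, Ty1 and Ty2 in Upf1-TAP (0.36, 0.14 and 0.67), Ty3 in Rpl16a-TAP (-0.42), and all Ty rows and Ty1 in Lsm1-TAP (0.38 and 0.25), and ended the call of all Ty rows in Pab1-TAP (-0.88).

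With the ribosomal class term 22 copies were called in Upf1-TAP, 23 in Pab1-TAP and 7 in Rpl16a-TAP against Input, and 6, 20 and 9 against Control (53%, 33.9% and 27.1% of all features, and 48%, 34% and 9.82%). DESeq2 called 12 in Pab1-TAP and 4 in Rpl16a-TAP against Input, and 6 in Upf1-TAP and 8 in Rpl16a-TAP against Control (22.5%, 14.8%, 37.2% and 4.15% of all features). With only the 6 libraries compared, 1 and 4 were called in Pab1-TAP and Rpl16a-TAP against Input and 2 in Pab1-TAP against Control (8.45%, 6.08% and 11.3% of all features), and with 10 reads in each of the 6 libraries, 2 in Pab1-TAP against Input and 5 in Upf1-TAP and 2 in Pab1-TAP against Control (10.6%, 35.3% and 14.7%). RLE factors gave 2 and 1 for Rpl16a-TAP against Input and Control (10.2% and 0.366%), and no filter gave 2 for Rpl16a-TAP against Input and 5 for Upf1-TAP against Control (5.29% and 21%).

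The call of all Ty rows in Pab1-TAP was lost against Input with only the 6 libraries (1.42), and against Control with RLE factors (-1.24), no filter (-1.32), only the 6 libraries (-1.33), 10 reads in each (-1.18) and without YLRWTy1-3 and YGRCTy2-1 (-0.35). All Ty rows in Rpl16a-TAP passed against Control with the class term (-1.88), DESeq2 (-1.94) and 10 reads in each (-2.07). All Ty rows in Lsm1-TAP were at 0.017 and Ty2 in Upf1-TAP at 0.12 against Control with 10 reads in each, and Ty3 in Rpl16a-TAP was at -0.071 with RLE factors, -0.45 with the class term and -0.12 with DESeq2. Reading frame rows turned Ty4 in Rpl16a-TAP (1.12) and Control (2.83) against Input and in Upf1-TAP (-0.20) and Pab1-TAP (-1.53) against Control.

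With the replicate block, 22 copies were called in Pab1-TAP and 7 in Rpl16a-TAP against Input, and Ty3 in Lsm1-TAP was at -0.058. Against Control, where the numbers did not pair the libraries, the replicate block gave 9 copies in Upf1-TAP, 19 in Pab1-TAP and 12 in Rpl16a-TAP (49.7%, 30.8% and 4.99% of all features), put all Ty rows in Rpl16a-TAP past the threshold (-1.90, adjusted p = 0.0099) and Ty3 there at -0.075. Apart from these and the calls given beside the results against Input, the replicate block changed no call of all Ty rows. Of the 32 host genes, the replicate block called 23 in Upf1-TAP (15 without it) and 14 in Pab1-TAP (8) against Control. The class term called 22 in Lsm1-TAP (13), 15 in Pab1-TAP (8), 20 in Control (13) and 19 in Rpl16a-TAP (10) against Input. All features called with it were 38.8%, 33.9%, 30.5% and 27.1% in the same order. Against Control it called 16 in Pab1-TAP (8) and 4 in Rpl16a-TAP (0), beside 34% and 9.82% of all features. For Pab1-TAP against Input, no filter called 5 (10.3% of all features). Both only the 6 libraries (8.45%) and 10 reads in each (10.6%) called 2, the latter with 5 for Rpl16a-TAP (11.3%).

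Leaving out replicates, singly or 1 number in all groups, gave these ranges. Copies called against Input were 3 to 18 in Upf1-TAP, 1 to 14 in Lsm1-TAP, 0 to 3 in Rpl16a-TAP, 0 to 14 in Pab1-TAP and 0 to 13 in Control, and against Control 0 to 9 in Upf1-TAP, 0 to 13 in Pab1-TAP and 0 to 10 in Rpl16a-TAP. The shares of all features called in these fits are not given, so the counts have no background beside them. All Ty rows ranged from 2.13 to 2.33 in Upf1-TAP, 2.00 to 3.01 in Lsm1-TAP, 1.14 to 1.57 in Pab1-TAP and 2.63 to 2.79 in Control against Input, where leaving out number 2 in all groups ended the calls (adjusted p 0.0729, 0.0780, 0.327 and 0.241), as did number 1 in Lsm1-TAP (0.0627) and Pab1-TAP (0.137) and number 3 in Pab1-TAP (0.0737). Against Control they ranged from -1.60 to -1.15 in Pab1-TAP (lost without number 1 or 2, adjusted p 0.145 and 0.413), -2.02 to -1.80 in Rpl16a-TAP (called without number 3, adjusted p = 0.0478) and -0.71 to 0.24 in Lsm1-TAP. Families that changed sign, none of them called in the fit of the report, were Ty3 and Ty4 in Lsm1-TAP against Input (-0.61 to 0.52 and -0.078 to 0.86), and against Control Ty2 in Upf1-TAP (-0.53 to 0.29), Ty3 and Ty4 in Rpl16a-TAP (-0.99 to 1.48 and -0.67 to 0.12) and Ty1 and Ty2 in Lsm1-TAP (-0.85 to 0.08 and -0.50 to 0.78). The cause of these changes was not tested. Depth limits the copies with few reads, the 19 rows with none carry no measurement, and read placement among near-identical copies limits every single-copy value.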
